A study of Mus musculus with 6 samples.

Results

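Mitf, Sox10, Pax3, Tfap2a, Lef1 and Trpm1 are 6 genes that mark the melanocyte lineage: 5 encode transcription factors and Trpm1 a cation channel. They were found by their symbols among the 24421 gene symbols counted in each library, and all 6 symbols were present. The libraries came from cells sorted as endothelium from subcutaneous B16F0 melanoma tumours in C57BL/6 mice. B16F0 cells are a mouse melanoma line that grows when injected into this strain. The 15C4 group received 15C4, an antibody against the secreted glycoprotein LRG1, and the IgG group received control IgG. Both were injected at 50 mg/kg every 3 days and tumours grew for 17 days. Each group has 3 libraries, numbered as in the labels, while age, sex and how many animals stand behind a library have no entry in the labels. The p-values therefore measure only the spread between libraries, which may in part be technical.

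In melanocytes, MITF is a basic helix-loop-helix leucine zipper factor that switches on the genes of pigment synthesis. SOX10 and PAX3 bind and activate its promoter, and LEF1 brings the WNT effector beta-catenin to it. AP-2 alpha, the product of Tfap2a, acts beside MITF at many melanocyte genes. Trpm1 is itself a MITF target, and the microRNA gene Mir211 lies within it. MITF also works in mast cells and osteoclasts, SOX10 in Schwann cells, PAX3 in muscle precursors, AP-2 alpha in keratinocytes and LEF1 in lymphocytes.

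Total counts lay between 6392700 and 19572202 in the 15C4 libraries and between 5175600 and 11669085 in the IgG libraries. The 15C4 3 library lay far from the rest in a principal component analysis and had 1537 of the 11144 genes with enough counts to be tested at 0, against 31 to 507 in the other libraries. The 16 endothelial markers summed to between 1384 and 2949 CPM (counts scaled to the library total) in 15C4 and between 195 and 2400 CPM in IgG, and the lowest sum was in IgG 3. The melanocyte markers Tyr, Tyrp1, Dct, Pmel, Mlana and Slc45a2 summed to between 22169 and 26358 CPM in 15C4 and between 22603 and 27289 CPM in IgG. The melanocyte marker sum thus exceeded the endothelial marker sum in every library. In such mixed samples, fewer cells of a type and less RNA per cell cannot be told apart.

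Of the 6 genes, 5 were well detected in every library, with at least 289 counts, and Lef1 was nearly absent. Levels per length, in counts per kilobase of exon scaled to the same total in each library, put Mitf first. Its level was between 202 and 831 in the 6 libraries, and between 1.43% and 9.64% of the detected genes lay above it. Sox10 had a level of 70.7 to 218, Pax3 of 66.2 to 236, Tfap2a of 31.2 to 117 and Trpm1 of 47.0 to 94.4. In the library where each ranked lowest, 23.3% of the detected genes lay above Sox10, 20.7% above Pax3, 39.2% above Tfap2a and 26.9% above Trpm1. Mitf was above Sox10 in 6 of 6 libraries, by 1.71-fold to 4.90-fold. Sox10 and Pax3 had no fixed order, with Sox10 higher in 2 of 6 libraries. Pax3 was above Tfap2a in 6 of 6, by 1.38-fold to 3.68-fold, while Tfap2a was above Trpm1 in only 4 of 6. Except between Trpm1 and Lef1, the ranges of neighbours in this order overlapped.

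Mitf (GRCm38 chromosome 6, 97807052 to 98021349, plus strand) is transcribed from several starts. RefSeq promoter windows on GRCm38.p6 were matched for Mitf, Tfap2a, Lef1 and Trpm1, 11 windows in all. The most downstream of the 3 Mitf windows lies before the start that melanocytes are known to use, and it is shown because other genes of this set and the cAMP pathway are known to act there. It spans the 250 bases before the start, chr6:97991533-97991782 on the plus strand. Capitals mark matches on either strand to the LEF/TCF motif CTTTGAT (positions -205 to -199 from the start) and to the cAMP response element TGACGTCA (-153 to -146).
Mitf downstream promoter: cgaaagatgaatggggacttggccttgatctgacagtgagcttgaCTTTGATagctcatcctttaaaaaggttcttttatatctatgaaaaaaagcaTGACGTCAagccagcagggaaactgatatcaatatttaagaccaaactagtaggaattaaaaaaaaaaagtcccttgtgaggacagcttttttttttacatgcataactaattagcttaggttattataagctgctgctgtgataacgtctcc
Among 32851 promoter windows of this length, 3.21% hold CTTTGAT or its reverse complement and 1.55% hold TGACGTCA. A match describes letters only. The gene counts do not separate the starts of Mitf.

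Mitf was at 1410.3, 1101 and 370.1 CPM in 15C4 1, 2 and 3 and at 1068, 857 and 509 CPM in IgG 1, 2 and 3. The 15C4 libraries held both the highest and the lowest value, so the IgG range lay within the 15C4 range. After TMM scaling, which corrects for differences in library composition, Mitf had a mean ± SD of 963 ± 483 CPM in 15C4 and 785 ± 273 CPM in IgG, over 3 libraries each. The log2 fold change, 15C4 over IgG, was 0.29 (SE 0.47, 95% interval -0.79 to 1.37), with an adjusted p of 1.00 by edgeR's quasi-likelihood test over all 11144 tested genes. Leaving out 15C4 3 gave 0.67, leaving out 15C4 1 gave -0.0052 and leaving out IgG 3 gave 0.075. Mitf was by far the highest of its family. Its relatives Tfe3 and Tfeb, regulators of lysosome genes, reached at most 8.37 and 7.43 in level, Tfec was at most at 0.0857 CPM, and Mitf made up 95.9% to 99.4% of the summed level of the 4 genes.

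Sox10 (chromosome 15, 79154908 to 79165240, minus strand) encodes the SOXE factor that maintains neural crest and melanocyte identity. It was at 182, 139.9 and 63.7 CPM in 15C4 1, 2 and 3 and at 107, 130.3 and 147 CPM in IgG 1, 2 and 3. Again the highest and the lowest library were both 15C4 libraries, and the lowest was 15C4 3. After TMM scaling Sox10 had a mean ± SD of 129 ± 51.9 CPM in 15C4 and 124 ± 19.6 CPM in IgG, over 3 libraries each. The log2 fold change was 0.061 (SE 0.42, 95% interval -0.91 to 1.03; edgeR adjusted p = 1.00). Leaving out 15C4 3 gave 0.35 and leaving out IgG 3 gave 0.20, whereas it was -0.20 with 15C4 1 left out, -0.027 with 15C4 2 left out and -0.050 with IgG 1 left out. Its relative Sox9, known for cartilage and for undifferentiated melanoma states, ranged from 0.0857 to 21.3 CPM, and Sox8 had 0 counts in all 6 libraries. Sox10 made up 92.1% to 99.96% of the summed level of these 3 genes.

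Pax3 (chromosome 1, 78101267 to 78197134, minus strand) encodes a paired box factor of melanoblasts and muscle precursors. It was at 400.3, 240.9 and 209.9 CPM in 15C4 1, 2 and 3 and at 236, 294 and 128 CPM in IgG 1, 2 and 3. The groups overlapped, and the lowest library was IgG 3. Pax3 averaged 287 ± 76.6 CPM in 15C4 and 212 ± 78.8 CPM in IgG after TMM scaling (± SD over 3 libraries each). The log2 fold change was 0.44 (SE 0.39, 95% interval -0.46 to 1.34; edgeR adjusted p = 1.00), against 0.20 without 15C4 1, 0.20 without IgG 3 and 0.69 without IgG 2. Of the other 8 PAX genes, Pax9 was the 1 with counts in more than 2 libraries. Pax9 peaked at 30.1 CPM among 15C4 libraries (15C4 1), against 32.8 CPM among IgG libraries (IgG 1). It had 0 counts in 15C4 3. Pax5 was seen in 15C4 1 alone, at 2.26 CPM, and Pax4 in IgG 1 alone, at 1.16 CPM.

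Tfap2a (chromosome 13, 40715302 to 40738376, minus strand) was at 144, 134 and 45.2 CPM in 15C4 1, 2 and 3 and at 76.5, 156 and 73.3 CPM in IgG 1, 2 and 3. The highest library was IgG 2 and the lowest 15C4 3. After TMM scaling Tfap2a had a mean ± SD of 109 ± 50.3 CPM in 15C4 and 98.5 ± 43.6 CPM in IgG. The log2 fold change was 0.14 (SE 0.52, 95% interval -1.06 to 1.34; edgeR adjusted p = 1.00). It was 0.49 without 15C4 3 and 0.57 without IgG 2, and lay between -0.065 and -0.021 without 15C4 1, 15C4 2, IgG 1 or IgG 3. Tfap2a made up at least 98.8% of the summed level of the AP-2 family in each library. None of its 4 relatives reached 1 CPM, and the highest, Tfap2b, was at most at 0.622 CPM. Exons of the antisense gene Gm26688, with 242 counts in all 6 libraries together, overlap those of Tfap2a. Exons of other antisense genes that have no symbol in the counts also overlap members. These are Gm47061 and Gm47067 for Tfap2a, Gm44722 for Trpm1 and Gm43352 for Lef1. Whether the counting used strand is not stated, so reads of each such pair cannot be told apart.

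**Figure D1:**
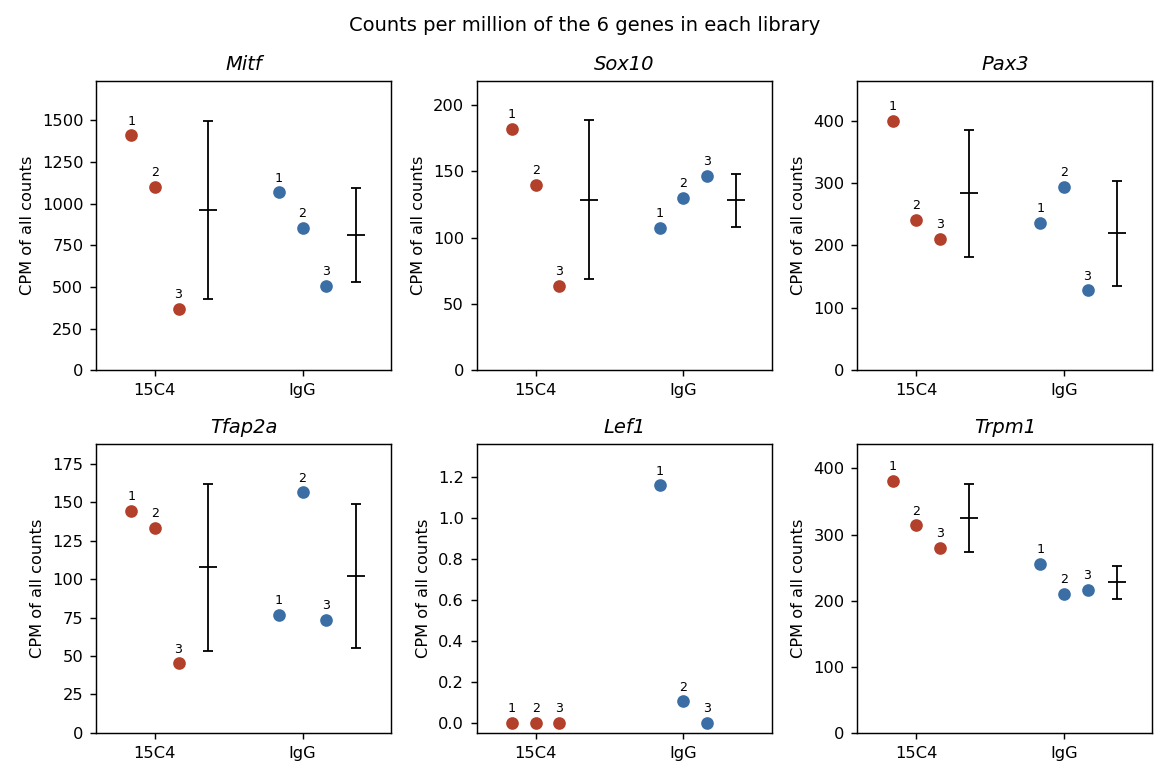
CPM of all counts for each of the 6 genes in the 3 15C4 libraries (left in each panel) and the 3 IgG libraries (right). Points carry the library number, and bars give the mean and SD (none for Lef1). The groups overlap for Mitf, Sox10, Pax3 and Tfap2a, all 15C4 points of Trpm1 lie above its IgG points, and Lef1 is at or near 0.

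Trpm1 (chromosome 7, 64153835 to 64269775, plus strand) was the steadiest of the 5 well detected genes. Its highest library was 1.81-fold above its lowest, against 2.86-fold to 3.81-fold for the others. RefSeq gives 2 starts, and the windows before both are shown because they hold the motifs that MITF is known to bind, marked in capitals. The first (chr7:64153585-64153834, plus strand) holds the M-box TCATGTG at positions -142 to -136 and a match to the AP-2 motif GCCNNNGGC at -202 to -194. The second (chr7:64185209-64185458, plus strand) holds the E-box CACGTG at -229 to -224.
Trpm1 promoter 1: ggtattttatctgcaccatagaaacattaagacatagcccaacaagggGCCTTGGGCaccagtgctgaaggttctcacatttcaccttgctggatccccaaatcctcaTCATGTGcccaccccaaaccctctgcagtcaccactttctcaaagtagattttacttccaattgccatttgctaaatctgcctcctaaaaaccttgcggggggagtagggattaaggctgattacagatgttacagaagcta
Trpm1 promoter 2: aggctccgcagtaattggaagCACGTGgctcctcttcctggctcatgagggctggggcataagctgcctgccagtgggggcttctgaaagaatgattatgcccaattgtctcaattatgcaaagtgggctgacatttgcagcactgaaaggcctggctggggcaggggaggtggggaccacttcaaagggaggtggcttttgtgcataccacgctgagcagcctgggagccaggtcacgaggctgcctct
Of all promoter windows, 3.25% hold TCATGTG or its reverse complement, 6.02% hold CACGTG and 13.7% hold GCCNNNGGC. The SOX core ACAAAG, searched in the same way and held by 16.5% of windows, was found in 1 of the 11 windows, the most downstream of the 4 of Lef1, which also holds CACGTG. No match overlapped another.

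The 15C4 libraries had Trpm1 at 382, 314 and 279 CPM (15C4 1, 2 and 3) and the IgG libraries at 256, 211 and 217 CPM (IgG 1, 2 and 3). All 15C4 libraries were above all IgG libraries. After TMM scaling Trpm1 had a mean ± SD of 333 ± 23.0 CPM in 15C4 and 221 ± 25.7 CPM in IgG, over 3 libraries each. The log2 fold change was 0.59 (SE 0.29, 95% interval -0.07 to 1.25) and did not pass (edgeR unadjusted p = 0.0724, adjusted p = 1.00). With each library left out in turn it lay between 0.53 and 0.69. Of all tested genes, 9.52% had groups that did not overlap and 2.88% had all 15C4 libraries above all IgG libraries, so 1 such gene among 5 is not read as a result about this set. Mir211, a gene of 106 bases counted as its own symbol, had 0 counts in all 6 libraries. Whether these libraries hold RNAs this short was not tested, so the 0 is not read as absence of the microRNA. Among the other TRPM channels only Trpm7, a ubiquitous channel with a kinase domain, was abundant. Trpm7 was at 257, 328 and 220.3 CPM in 15C4 and 242, 260.1 and 270.3 CPM in IgG (libraries 1, 2 and 3), with a log2 fold change of 0.15 (SE 0.30). Its level per length, 66.0 to 97.4, overlapped that of Trpm1. Trpm4 reached at most 1.67 CPM.

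Lef1 (chromosome 3, 131110471 to 131224356, plus strand) had 0, 0 and 0 counts in 15C4 1, 2 and 3 and 6, 1 and 0 counts in IgG 1, 2 and 3. It did not pass the filter on low counts and was not tested. With 0 counts, the 15C4 libraries allow up to 0.357, 0.153 and 0.469 CPM, from 3 counts of each total and for counting error only. Taken over the groups, the 7 IgG counts set against a floor of 3 counts in 15C4 gave a ratio of 3.03, scaled to the totals. That ratio takes the IgG counts without their own error, so it does not bound a difference between the groups. It rests on IgG 1, since 1 count remained in IgG without it. T and NK cell markers, led by Gzma, summed to 1.58 to 6.07 CPM in 15C4 and to 406, 9.23 and 1.71 CPM in IgG 1, 2 and 3, so IgG 1 was also the library richest in them. Lymphocytes use Lef1, and the part of these cells in its 6 counts was not tested. The other LEF/TCF factors were present. Tcf7l2 was at 123, 13.9 and 32.5 CPM in 15C4 and 67.0, 52.8 and 22.5 CPM in IgG. Tcf7l1 was at 5.83, 18.4 and 0.782 CPM in 15C4 and 7.92, 36.5 and 8.14 CPM in IgG. Tcf7, also a T cell factor, was at 14.6, 12.6 and 24.9 CPM in 15C4 and 2.13, 0.104 and 0.943 CPM in IgG. All 15C4 libraries exceeded all IgG libraries for Tcf7, as for 2.88% of all tested genes, so this is not read as a result. Its log2 fold change of 4.16 (SE 1.32) did not pass (edgeR unadjusted p = 0.0126, adjusted p = 1.00). It rests on 11, 1 and 11 counts in IgG 1, 2 and 3.

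**Figure D2:**
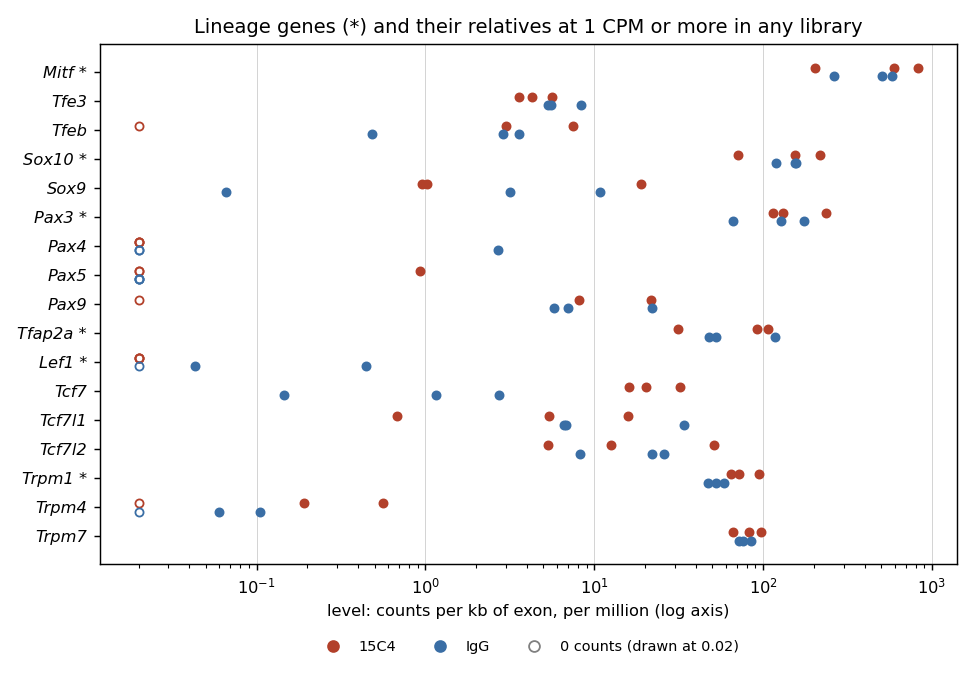
Level per length (counts per kilobase of exon, scaled to one total per library, log axis) of the 6 lineage genes, starred, and of their 11 relatives that reached 1 CPM in any library. Each point is a library, 15C4 drawn above IgG. Levels rise from left to right, and genes are stacked in rows by family. Lef1 lies towards the left, with at most 1.24% of its family's summed level in any library. Trpm1 overlaps Trpm7, and Mitf, Sox10 and Pax3 lie to the right of all their relatives that are drawn. No relative of Tfap2a reached 1 CPM, so none is drawn.

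Across the set, 0 of the 5 tested genes passed the threshold of 0.05 on adjusted p, as did 0 of all tested genes (0%). At an unadjusted p under 0.05 the count was 0 of 5, where 2.58% of all tested genes lay under it. All 5 were fitted above 0, as were 50.7% of tested genes, and their median log2 fold change was 0.29, against 0.010 for all tested genes. These 5 values come from the same 6 libraries and are not independent. DESeq2 called 0.21% of the 10959 genes it gave an adjusted p, and 0 of the 5. In the authors' deposited table the fold changes run IgG over 15C4, and all 5 were below 0 there, from -0.641 for Trpm1 to -0.1 for Sox10, with adjusted p of 0.705 to 0.996. For Lef1 the authors' deposited table gives 4.366 in that direction, with an adjusted p of 0.605.

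**Figure D3:**
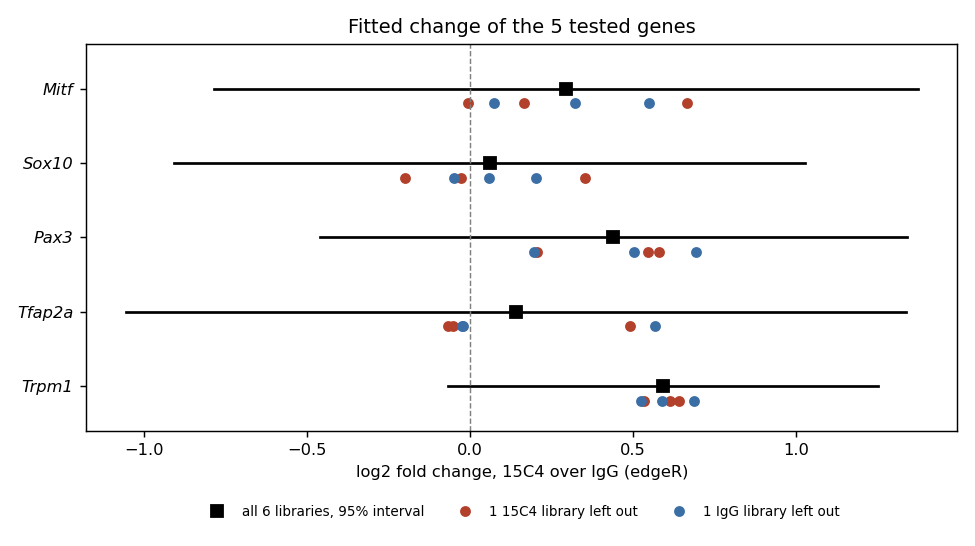
Log2 fold change, 15C4 over IgG, of the 5 tested genes (edgeR). Squares with lines give the fit on all 6 libraries with its 95% interval, and circles the fits with 1 library left out. Every interval includes 0, and only for Pax3 and Trpm1 do all circles stay above 0.

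Because melanocyte markers summed to more than endothelial markers in every library, each gene was also set against 14 pigment genes of the same lineage. Their counts summed to between 24215 and 29474 CPM in 15C4 and between 24813 and 29449 CPM in IgG. Most of this sum came from Dct, at 9795 to 16944 CPM over the 6 libraries, and Tyrp1, at 6369 to 8675 CPM. Per 1000 pigment counts, Mitf had 48.6, 45.5 and 12.6 counts in 15C4 1, 2 and 3 and 36.2, 30.7 and 20.5 counts in IgG 1, 2 and 3. Sox10 had 6.27, 5.78 and 2.16 counts in 15C4 and 3.64, 4.66 and 5.91 counts in IgG. The 15C4 3 library was thus the lowest for both relative to pigment genes too. Tfap2a had 4.97, 5.52 and 1.53 counts in 15C4 and 2.60, 5.60 and 2.95 counts in IgG. Pax3 had 13.8, 9.95 and 7.12 counts in 15C4 and 7.998, 10.5 and 5.16 counts in IgG. Trpm1 had 13.1, 13.0 and 9.48 counts in 15C4 and 8.69, 7.54 and 8.73 counts in IgG. Of these 5 genes, Trpm1 had groups that did not overlap on this scale, as had 9.31% of all tested genes (3.06% with all 15C4 libraries above all IgG libraries), so this is not read as a result about the set. The difference in mean log2 ratio, 15C4 minus IgG, was 0.50 for Trpm1 (two-sided exact permutation p = 0.1, the smallest that 3 libraries against 3 allow and the value that any such groups without overlap give). It was 0.094 for Mitf (exact p = 1), -0.12 for Sox10 (exact p = 0.9), 0.39 for Pax3 (exact p = 0.5) and -0.010 for Tfap2a (exact p = 0.9). These were 6 tests with unadjusted p, and none could go below that limit. For Lef1 the difference, -1.56 (exact p = 0.3), is set by the pseudocount of 1 in the 4 libraries at 0.

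**Figure D4:**
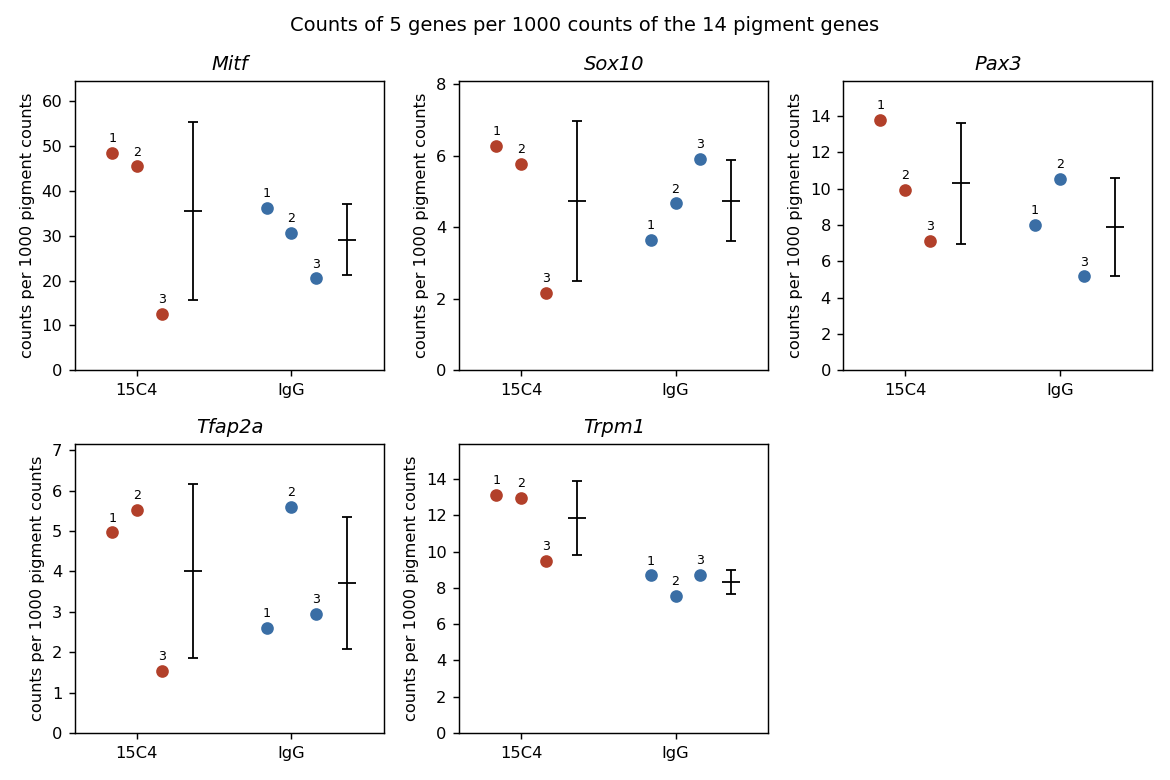
Counts of 5 lineage genes per 1000 counts of the 14 pigment genes in each 15C4 (left) and IgG (right) library, with library numbers, means and SD. Trpm1 ranges from 9.48 to 13.1 in 15C4 and from 7.54 to 8.73 in IgG. Library 15C4 3 is the lowest point for Mitf, Sox10 and Tfap2a.

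The ratios between the genes differed from library to library. Relative to Mitf, Trpm1 had 27.1, 28.5 and 75.5 counts per 100 Mitf counts in 15C4 1, 2 and 3 and 24.0, 24.6 and 42.6 in IgG 1, 2 and 3. Mitf is the denominator here and varied more than Trpm1, so a high ratio where Mitf was low is largely built in. Tyr, which encodes tyrosinase, the first enzyme of melanin synthesis and a MITF target, was at 542, 776 and 1222 CPM in 15C4 1, 2 and 3 and at 548, 663 and 1392 CPM in IgG 1, 2 and 3. Its 2 highest libraries, 15C4 3 and IgG 3, were those with least Mitf. Of the 14 pigment genes, 5 had their highest library in 15C4 3: Tyrp1, Slc24a5, Gpr143, Oca2 and Rab38. Another 3 had their lowest there. Mc1r, the melanocortin receptor that raises MITF through cAMP, was at 205, 176 and 1.56 CPM in 15C4 and 188, 192 and 157 CPM in IgG. Mlph, a melanosome transport adaptor, was at 145, 119 and 21.1 CPM in 15C4 and 109.7, 128 and 85.4 CPM in IgG. Rab27a was lowest there too, at 56.3 CPM. The 1537 tested genes at 0 counts in 15C4 3 stand beside these values, and their part was not tested.

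**Figure D5:**
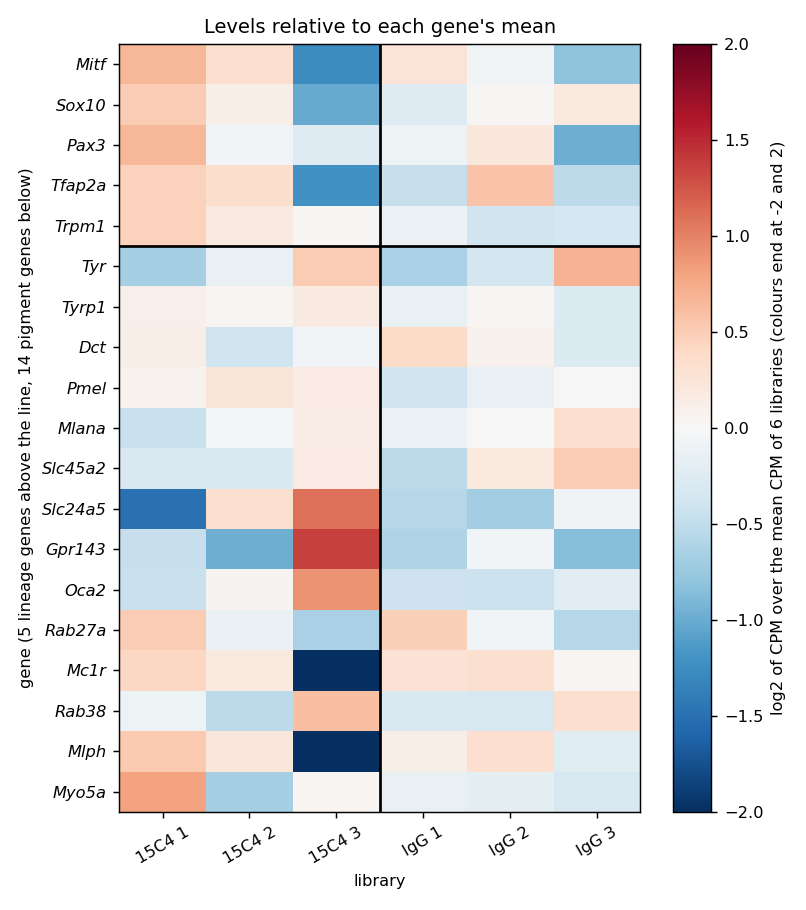
Log2 of CPM over the gene's mean CPM of 6 libraries, for 5 lineage genes (above the line) and 14 pigment genes (below), with the 3 15C4 libraries left of the 3 IgG libraries. Colours end at -2 and 2. Mitf, Sox10 and Tfap2a are low in 15C4 3, where Tyr, Slc24a5, Gpr143 and Oca2 are high and Mc1r and Mlph are low.

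For each of the 5 genes, the 3 genes of most similar pattern were taken by Pearson correlation of log2(CPM + 1) over the 6 libraries, as a description without a test. For Mitf they were Usp7 (r = 0.99), a deubiquitinase gene, Pip4k2b (0.99) and Foxn2 (0.99). For Sox10 they were Rbms3 (r = 1.00), Pmm2 (0.99) and Lama5 (0.99), for Pax3 Orai1 (0.99), Oas1b (0.99) and Senp1 (0.98), for Tfap2a Hist1h2bc (0.99), Ing2 (0.99) and Arid2 (0.99), and for Trpm1 Dclre1a (1.00), Ttc27 (0.99) and Slu7 (0.99). None of the 5 tested lineage genes was among them, and Lef1, which did not pass the filter on low counts, could not appear. Over 6 points many genes reach a high r, though the share differed between the 5 genes. The value of r was above 0.9 with Mitf for 284 of 11143 genes (2.55%), with Sox10 for 4.19%, with Pax3 for 1.24% and with Tfap2a for 2.17%. With Trpm1 it was above 0.9 for 45 genes (0.404%). Among the 5 genes themselves, r was highest between Mitf and Tfap2a (0.80) and between Sox10 and Tfap2a (0.80), and lowest between Tfap2a and Trpm1 (0.21) and between Sox10 and Trpm1 (0.21). The 6 libraries share their depth and their dropouts in these values.

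Markers of other cell types known to use these factors were counted in the same libraries. Mast cell markers summed to at most 0.0511 CPM in 15C4 and 7.54 CPM in IgG, with Cpa3, Mcpt4, Tpsb2, Fcer1a and Ms4a2 at 0 counts in all libraries. Macrophage markers summed to 0 to 52.4 CPM in 15C4 and 8.50 to 27.4 CPM in IgG, led by Cd68, and were at 0 in 15C4 3, where Mitf was at 370.1 CPM. Keratinocyte markers had 0 counts in 15C4 and reached 4.46 CPM in IgG, with Krt5, Krt14, Krt1, Trp63 and Dsg3 at 0 in all libraries. Skeletal muscle markers reached 0.833 CPM in 15C4 and 5.80 CPM in IgG, led by Ckm, with Myod1, Myf5, Myog and Pax7 at 0. Schwann cell markers summed to between 397 and 694 CPM in 15C4 and between 384 and 707 CPM in IgG. S100b led that list, and Mbp and Cdh19 were above 20 CPM in every library. Melanoma cells also express S100b. B cell markers reached at most 2.26 CPM in 15C4, led by Pax5, and 2.06 CPM in IgG. Lymphatic markers summed to 31.4 to 63.8 CPM in 15C4 and 11.6 to 1094 CPM in IgG, led by Mmrn1, and fibroblast markers, led by Lum, to 0.119 to 153 CPM in 15C4 and 1.71 to 103 CPM in IgG. Pericyte markers, led by Abcc9, summed to 57.2 to 82.0 CPM in 15C4 and 10.5 to 102 CPM in IgG. The part of these cell types in the values of the lineage genes was not tested. The 6 lineage genes together summed to 2519, 1929 and 968 CPM in 15C4 1, 2 and 3 and to 1744, 1649 and 1073 CPM in IgG 1, 2 and 3. The IgG 3 library, with endothelial markers, led by Cdh5, at 195 CPM, thus had the lowest sum of its group.

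None of the genes listed around these factors passed the test. Of the 14 pigment genes, all tested, 0 passed in either direction, and their median log2 fold change was 0.17. The groups did not overlap for 1 of the 14, Pmel, against 9.52% of all tested genes. Pmel, which builds the fibrils of the melanosome, had a log2 fold change of 0.43 (SE 0.27), Oca2 of 0.75 (SE 0.44), and Dct, the most abundant, of -0.10 (SE 0.29). Of 14 other described MITF targets, 12 were tested, 0 passed, 8 were fitted above and 4 below 0, and the median was 0.44. Cdkn1a, which encodes the cell cycle inhibitor p21, was at 58.2, 50.7 and 61.8 CPM in 15C4 and 126, 105 and 224 CPM in IgG, with a log2 fold change of -1.32 (SE 0.44; edgeR unadjusted p = 0.0153, adjusted p = 1.00). Dicer1 had a log2 fold change of 1.38 (SE 0.64), and Met, a receptor tyrosine kinase gene and the most abundant of the list, of 0.23 (SE 0.39). Of 8 SOX10 targets, 4 were tested and 0 passed, with a median of -0.50, where Gjc3, the most abundant by CPM, had a log2 fold change of -0.63 (SE 0.54).

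Upstream, all 14 receptors and relays that act on MITF were tested and 0 passed, with a median of -0.032. Ctnnb1, which encodes beta-catenin, the partner of LEF and TCF factors, was at 3163, 2393 and 3280 CPM in 15C4 and 2170.2, 2797 and 1795 CPM in IgG, which gave a log2 fold change of 0.48 (SE 0.30). Kit, the receptor for stem cell factor, was at 51.1, 70.4 and 132 CPM in 15C4 and 14.7, 69.4 and 1.54 CPM in IgG, which gave 1.71 (SE 1.10). Of 11 transcriptional targets of beta-catenin with LEF and TCF factors, 5 were tested and 0 passed, with 2, Tcf7 itself among them, fitted above and 3 below 0 and a median of -0.081. Nkd1, Sp5, Notum and Dkk1 had 0 counts in all libraries. Ccnd1, which encodes cyclin D1 and was the most abundant of them, was at 296, 207 and 138 CPM in 15C4 and 289, 321 and 530.2 CPM in IgG, with a log2 fold change of -0.77 (SE 0.38; edgeR unadjusted p = 0.0737, adjusted p = 1.00).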

How the data were processed

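The tools named in the submitters' processing notes are featureCounts, STAR 2.5b, DESeq2 and fastp; both mm9 and mm10 appear there as builds, with no role. The authors deposited raw counts per gene symbol for each library, with no normalisation, without stating annotation or strand. A series table that the authors deposited holds the same kind of counts with a log2 fold change (IgG over 15C4, by its sign) and p-values. Its raw counts equalled the single files for the 24394 symbols spelled alike, and its 6 columns of normalised values were not used.

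Counts were tested with edgeR 4.0.16 (R 4.3.3): TMM scaling, filterByExpr (minimum count 10, total 15), quasi-likelihood test, treatment as the only term, Benjamini-Hochberg adjustment over all 11144 genes, threshold 0.05. SE is the absolute log2 fold change over the square root of F. Precision is limited by depths of 5175600 to 19572202 counts and by 3 libraries a group. Floors cover counting error only, since PCR reads with no molecular identifier are not separate molecules. DESeq2 1.42.0 and limma 3.58.1 (voom), other scalings and filters, and fits without each library were alternatives. The edgeR script was tested on simulated data. Coordinates, exons and lengths are from GENCODE M21 on GRCm38, which gave lengths for 23334 symbols, and promoters from RefSeq. The 6 genes and the lists were chosen with earlier results of these data known. Named are the 6 genes, relatives at 1 CPM or more in any library, the 2 genes of smallest p and the most abundant gene per pathway list, the most abundant gene per marker list, and the 3 genes of most similar pattern. Some genes that this rule names are not reported here, and others were named after their values were seen.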

Additional observations from a re-analysis of the deposited data

How the results depend on the processing

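For Pax3 and Trpm1 the fold change kept its direction under all 14 alternatives, and for neither did it pass. Other scalings, tools and filters kept the direction of all 5 tested genes, and the lowest adjusted p of any of them under any alternative was 0.877. DESeq2 called 23 genes and edgeR without a filter on low counts called 1, 3830403N18Rik, named here after its value was seen, against 0 with the filter, where 288 genes had an unadjusted p under 0.05. limma-voom called 0, with 461 at that unadjusted p. With 1 library left out, 0 genes passed, and the fold change ranged from -0.0052 to 0.67 for Mitf, -0.20 to 0.35 for Sox10, 0.20 to 0.69 for Pax3, -0.065 to 0.57 for Tfap2a and 0.53 to 0.69 for Trpm1. The log2 ratio to pigment genes ranged from -0.25 to 0.73 for Mitf, -0.40 to 0.37 for Sox10, 0.11 to 0.63 for Pax3, -0.34 to 0.58 for Tfap2a, -2.37 to -0.50 for Lef1 and 0.42 to 0.65 for Trpm1. Without Dct and Tyrp1 in the denominator it was -0.050 for Mitf, and 0.36 for Trpm1 (two-sided exact permutation p = 0.2). With 15C4 3 and IgG 3 both left out, an alternative chosen after seeing the data, it was 0.55 for Sox10 and 0.46 for Tfap2a. The cause was not tested.

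The libraries of the 2 groups share numbers, and the labels do not say that these pair them. Deviations of same-numbered libraries from their group means correlated at -0.052, 0.065 and 0.11, against -0.12 to 0.085 for libraries of different number. With 3 libraries a group these values cannot decide on pairing, so the main fit had no block. Fitted with the replicate number as a block, Sox10 had a log2 fold change of -0.015, the other 4 genes kept their direction, and 0 genes passed. The 95% intervals of all 5 tested genes include 0, so neither direction was resolved for any of them with 3 libraries a group.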

Other observations

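Further sets hold genes known from work on how differentiated melanoma cells are. The libraries also hold endothelial transcripts, and which cells gave the counts of these genes was not tested. Of 10 genes known to be high where MITF is low, 5 were tested and 0 passed. All 5 were fitted above 0, as were 50.7% of tested genes, with a median log2 fold change of 0.55 against 0.010 for all tested genes. The log2 fold change was 0.86 (SE 2.10) for Pou3f2, 0.55 (SE 1.73) for Sox9 and 0.22 (SE 1.30) for Zeb1. With errors this wide, the median is not read as a shift of the set. Axl, a receptor tyrosine kinase gene, was at 53.9, 51.1 and 0.782 CPM in 15C4 1, 2 and 3 and at 11.6, 22.8 and 14.9 CPM in IgG 1, 2 and 3, which gave a log2 fold change of 1.14 (SE 1.15). Jun, the most abundant of them, was at 343, 216 and 33.2 CPM in 15C4 and 82.1, 270.6 and 99.4 CPM in IgG. Both were lowest in 15C4 3, the library that was also lowest in Mitf. That library had 1537 of the tested genes at 0 counts, and a link of either gene with Mitf was not tested. Ngfr and Sox2 had 0 counts in all 6 libraries. Of 10 other neural crest and melanoblast factors, 5 were tested, 3 were fitted above and 2 below 0, and 0 passed. Zeb2, the most abundant, was at 364, 223 and 184 CPM in 15C4 and 229, 185 and 251 CPM in IgG (0.27, SE 0.34), and Tbx2 had a log2 fold change of -0.42 (SE 0.54).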
